A study of Mus musculus with 51 samples.

Results

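Broad H3K4me3 promoter domains were sites at a transcription start site (TSS) where at least 1 single H3K4me3 peak was 2000 bp or wider in any of the 10 peak lists made with the EpiCypher antibody. The 94195 peaks of these lists were merged into 25578 sites, 12509 of which overlapped the 500 bp on either side of a GENCODE M21 transcript start (mm10, chromosomes 1 to 19). Of these, 1105 (8.83%) held such a peak. The width and the lists chose the domains, so all H3K4me3 widths and stages below are descriptions without a test. The other 11404 TSS sites served for comparison.

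Chromatin was immunoprecipitated and sequenced from sorted nuclei of formaldehyde-fixed whole testes of adult male wild-type C57Bl/6J mice. Nuclei with replicated DNA and the axis protein SCP3 were sorted into leptonema by STRA8, and into the 4 following stages (zygonema, early pachynema, late pachynema, diplonema) by SCP1 and the testis histone H1t, so that each stage is a sorted population, which can hold nuclei of neighbouring stages. All samples shared this background and no treatment. H3K4me3 had 1 list from experiment 1 and 1 from experiment 2 in each of the 5 stages, H3K4me2/3 (an Abcam antibody that also binds dimethylated lysine 4) had 5 lists of experiment 2, 1 per stage, and H3K9ac 5 of experiment 1. The H3K9ac libraries carry an antibody tag that names H3K4me3 with the catalogue number that the study's methods give to H3K9ac; they were used under their titles. Whether the sorts of experiments 1 and 2 came from separate mice is not stated in the sources used here.

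Trimethylation of lysine 4 on histone H3 is laid down by the SET1 and MLL complexes at active and poised promoters, where CpG-rich DNA recruits these enzymes through CXXC domains. At most promoters the mark forms a sharp peak beside the TSS. In many cell types a small set of promoters instead carries it over a long stretch, and such broad domains have been described at genes of cell identity and, in embryonic cells, at developmental regulators. Acetylation of lysine 9 is found at active promoters, often beside trimethylated lysine 4. In spermatocytes a further enzyme, PRDM9, places H3K4me3 at recombination hotspots, most of them away from promoters.

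The promoters of 4 genes are shown because each belongs to a domain with another distribution over the lists: Yy1 was broad in all 10, Hexim1 in leptonema, Zzz3 in diplonema and Evx2 in experiment 2 of leptonema alone. They run from 250 bases before to 50 after a RefSeq transcript start (GRCm38.p6, the mm10 chromosomes), and CpG dinucleotides are in capitals. For Zzz3 the most CpG-rich of its RefSeq promoters is printed.
Yy1, chr12:108793047-108793346, plus strand: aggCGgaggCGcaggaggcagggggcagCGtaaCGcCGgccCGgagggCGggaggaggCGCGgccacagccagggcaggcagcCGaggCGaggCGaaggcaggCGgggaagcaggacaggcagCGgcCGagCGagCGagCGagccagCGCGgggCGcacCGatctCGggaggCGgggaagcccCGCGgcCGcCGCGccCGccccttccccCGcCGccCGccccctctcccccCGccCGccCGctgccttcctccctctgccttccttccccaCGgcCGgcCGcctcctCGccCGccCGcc
Hexim1, chr11:103116075-103116374, plus strand: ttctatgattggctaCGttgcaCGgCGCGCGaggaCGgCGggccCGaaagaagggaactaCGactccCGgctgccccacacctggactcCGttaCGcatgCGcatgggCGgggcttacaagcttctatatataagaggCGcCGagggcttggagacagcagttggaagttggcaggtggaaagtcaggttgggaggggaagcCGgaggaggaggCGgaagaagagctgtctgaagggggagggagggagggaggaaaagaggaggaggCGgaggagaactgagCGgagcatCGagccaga
Zzz3, chr3:152395753-152396052, plus strand: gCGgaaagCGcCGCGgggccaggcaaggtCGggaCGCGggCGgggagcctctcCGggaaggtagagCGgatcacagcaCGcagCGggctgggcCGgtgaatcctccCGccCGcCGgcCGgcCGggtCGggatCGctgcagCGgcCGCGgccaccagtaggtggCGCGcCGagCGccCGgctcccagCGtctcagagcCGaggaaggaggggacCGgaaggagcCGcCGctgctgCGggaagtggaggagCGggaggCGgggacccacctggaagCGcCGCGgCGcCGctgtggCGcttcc
Evx2, chr2:74659508-74659807, minus strand: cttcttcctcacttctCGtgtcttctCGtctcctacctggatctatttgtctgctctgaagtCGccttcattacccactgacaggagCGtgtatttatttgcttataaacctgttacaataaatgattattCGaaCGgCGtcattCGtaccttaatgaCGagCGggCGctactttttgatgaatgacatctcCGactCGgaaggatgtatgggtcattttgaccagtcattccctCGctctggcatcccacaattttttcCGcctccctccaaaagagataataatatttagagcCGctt
The Yy1 and Zzz3 promoters hold 42 CpG dinucleotides each, which 3.14% of the 31396 RefSeq promoters on these chromosomes reach or pass. Hexim1 holds 21 and Evx2 16, reached by 25.4% and 33.6% of promoters, beside a median of 7.

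The domains were spread unevenly over the lists. Values for all 5 stages are given from leptonema to diplonema. Experiment 1 gave 89 broad sites (0.711% of all TSS sites), 105 (0.839%), 43 (0.344%), 17 (0.136%) and 171 (1.37%). Experiment 2 gave 505 (4.04%), 78 (0.624%), 12 (0.0959%), 136 (1.09%) and 685 (5.48%). Early pachynema had the lowest mean over its libraries, 27.5 ± 21.9 (SD, n = 2), and diplonema the highest, 428 ± 363. The SD at leptonema (297 ± 294), late pachynema (76.5 ± 84.1) and diplonema was near or above the mean. With a minimum of 3000 bp or with the widest 5% of each list, leptonema had the highest mean (53.5 and 512, beside 47.5 and 450 in diplonema).

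**Figure D1:**
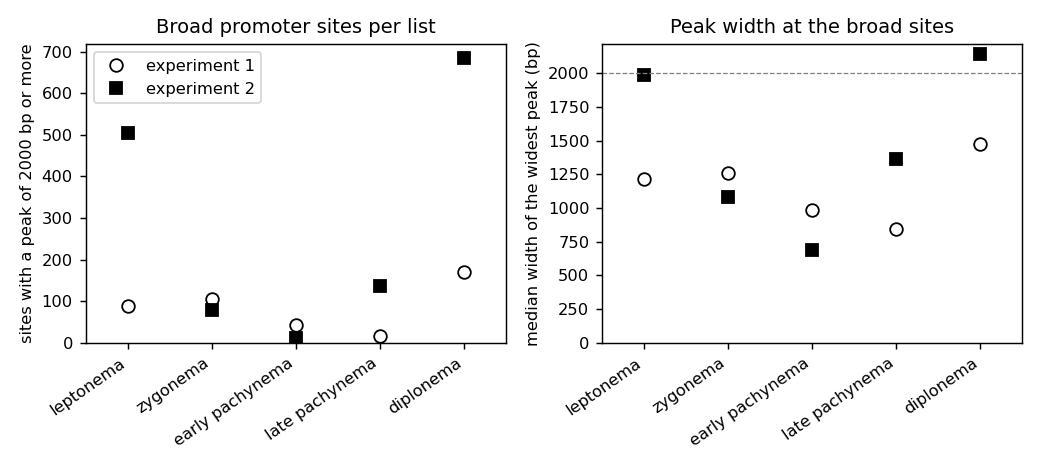
Left, the number of TSS sites with an H3K4me3 peak of 2000 bp or more in each list, by stage (x axis). Right, the median width in bp of the widest peak over those of the 1105 sites with a peak in the list, with a dashed line at 2000 bp. Open circles are experiment 1 and filled squares experiment 2, 1 library each. The leptonema and diplonema lists of experiment 2 stand highest in both plots, at 505 and 685 sites.

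Most domains were broad in a single list. A broad peak in 1 list only was found at 746 sites (67.5%), of which 386 were broad only in experiment 2 of diplonema and 304 only in experiment 2 of leptonema. Without the leptonema list of experiment 2 there were 801 broad sites, and without the diplonema list of experiment 2 there were 719. A broad peak in 2 or more lists was present at 359 sites, in both libraries of at least 1 stage at 241 and in all 10 lists at 4. The experiment 2 lists alone accounted for 802 sites (72.6%), the experiment 1 lists alone for 32 (2.90%) and both experiments for 271 (24.5%).

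Domains of the smaller list of a stage were mostly contained in the larger one. Of the sites broad in experiment 1 of leptonema, 82 of 89 (92.1%) were broad in experiment 2, and these were 16.2% of the broad sites of experiment 2. The same counts were 161 of 171 in diplonema (94.2% and 23.5%), 15 of 17 in late pachynema (88.2% and 11.0%) and 11 of the 12 sites of experiment 2 in early pachynema (91.7%, and 25.6% of those of experiment 1). Zygonema was the exception, with 41 sites in common (39.0% of experiment 1 and 52.6% of experiment 2). When the 303 sites broad in any experiment 1 list were read in experiment 2, a mean of 34.3% over the 5 stages was broad there, from 3.96% in early pachynema to 71.3% in diplonema, beside 1.47% of the TSS sites with no broad peak in experiment 1. In the opposite direction, a mean of 7.31% over the 5 stages of the 1073 sites broad in any experiment 2 list was broad in experiment 1. The shares ran from 1.58% in late pachynema to 15.2% in diplonema. Of the TSS sites with no broad peak in experiment 2, 0% and 0.07% were broad in these stages. With any stage counted, 271 sites were broad in both experiments, of the 303 of experiment 1 and the 1073 of experiment 2.

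Being under 2000 bp did not mean that a peak was absent. A peak of some width was called at 61.2% of the domains in experiment 2 of early pachynema, the lowest of the 10 lists (37.6% of all TSS sites). It was called at 92.3% in experiment 2 of leptonema, the highest (77.6%). A peak in all 10 lists was present at 586 domains (53.0%), beside 23.5% of the other TSS sites. The median width of the widest peak of the domains ranged from 689 bp in early pachynema to 2145 bp in diplonema, both in experiment 2. Of the 505 sites broad in experiment 2 of leptonema, 103 had no peak in experiment 1 and the others had a median width of 1325 bp there. In diplonema only 10 of the 685 lacked an experiment 1 peak, and the median was 1589 bp.

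The limit of 2000 bp cut through a continuous range of widths. Just inside it lay Ddx6, an RNA helicase of mRNA storage and decay, with a widest peak of 2000 bp, and the shared site of Bckdha and Exosc5 with 2001 bp. Just outside lay Dhx15 and Arsa with 1999 bp and Ppm1b with 1998 bp. Across the domains the widest peak had a median of 2387 bp (quartiles 2147 and 2740) and a maximum of 11114 bp, and 52 sites had a peak of 4000 bp or more.

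By stage, 407 domains were broad only in leptonema or zygonema (early), 535 only in the 3 later stages, and 163 in both periods. The most frequent patterns were diplonema alone (457 sites), leptonema alone (331), leptonema with diplonema (71), late pachynema with diplonema (67) and zygonema alone (50). A single site was broad in early pachynema alone and none in late pachynema alone. Sites broad in both periods had medians from 948 bp in experiment 2 of early pachynema to 2518 bp in experiment 2 of diplonema, beside 409 to 1179 bp at the 2680 other TSS sites that also had a peak in all 10 lists. Early sites had a peak of any width in all 10 lists in 26.3% of cases, near the 23.5% of the other TSS sites. Later sites had one in 64.1% and sites of both periods in 83.4%.

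**Figure D2:**
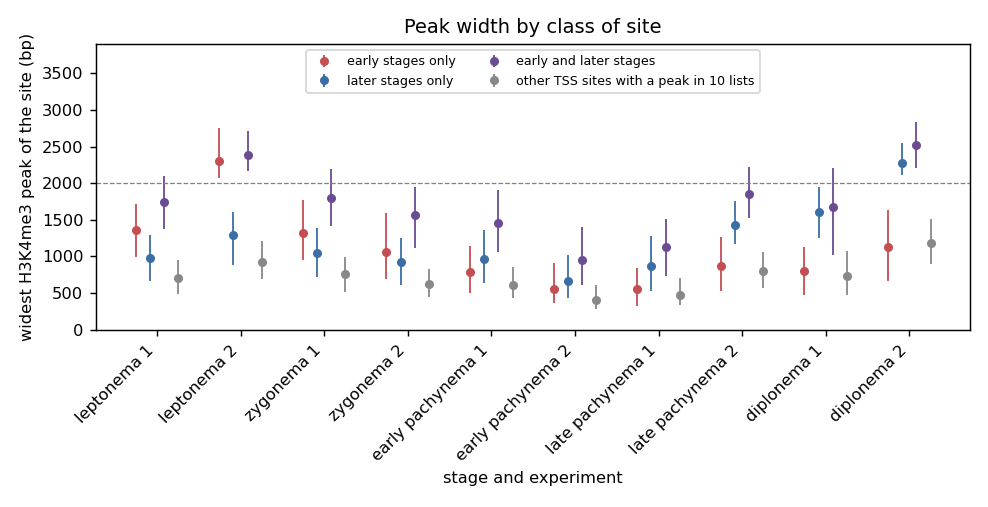
Width in bp of the widest H3K4me3 peak (y axis) in each of the 10 lists (x axis, stage and experiment) over the sites with a peak there. Points are medians and bars run from the lower to the upper quartile, and the dashed line is at 2000 bp. Early sites have medians of 2299 bp in experiment 2 of leptonema and 556 to 868.5 bp in experiment 2 of the pachytene stages, whereas later sites reach 2275 bp in experiment 2 of diplonema. The classes were defined from these widths.

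A broad peak in all 10 lists was found at 4 sites, those of Gm21738, Yy1, Hnrnpk with Rmi1, and Cep95 with Ddx5. Yy1 encodes a zinc finger transcription factor, and its domain (chr12:108791298-108795495) was broad in all 10. Its peak was 2563, 2617, 3269, 3435 and 2226 bp wide in experiment 1, from leptonema to diplonema, and 2637, 3134, 2818, 3463 and 4198 bp in experiment 2. No stage stood apart at Yy1, where the lowest and the highest width both came from diplonema. The site of Hnrnpk, an RNA-binding protein, and Rmi1, a partner of the BLM helicase, was 2788, 2930, 2549, 2286 and 2940 bp wide in experiment 1 and 2798, 2475, 2302, 2566 and 3037 bp in experiment 2. The site of Cep95 and the RNA helicase gene Ddx5 ranged from 2070 to 2971 bp with a median of 2212.5 bp.

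Broad in 9 lists were Arid2, a subunit of the PBAF chromatin remodeller (1950 to 3981 bp), Kmt2e, a SET domain protein of the MLL family (1946 to 3969 bp), Hnrnpa0 (1887 to 3135 bp), the shared site of Fbxo36 and Trip12, a ubiquitin ligase (1863 to 3358 bp), the transcription factor gene Sp3 (1348 to 2723 bp) and Hnrnpu (1763 to 2520 bp). In each of these the tenth list held a narrower peak, and these narrower peaks came from 5 different lists. Ing2, whose product binds H3K4me3 through a PHD finger, was broad in 8 lists, with its narrowest peaks, 1120 and 1260 bp, in experiment 2 of early pachynema and experiment 1 of late pachynema. The widest of the 4 sites by its mean over the lists was that of a predicted gene, Gm21738 (3231 to 3902 bp). Its peak was also broad in all 10 lists of the other antibodies, including 3600 bp for H3K9ac in diplonema, where no other TSS site had a broad peak. Of its sequence, 84.0% is marked as repeat, beside a median of 10.9% over the domains.

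Some sites were broad in the 2 experiments of a single stage and in no other H3K4me3 list. They numbered 22 for leptonema, 8 for zygonema, 63 for diplonema and none for early or late pachynema. In leptonema these were led by Hexim1, an inhibitor of the elongation factor P-TEFb, with 2187 and 3961 bp. In the order zygonema to diplonema its peaks were then 0, 165, 155 and 525 bp wide in experiment 1 and 723, 0, 888 and 1758 bp in experiment 2, where 0 means no peak. Auts2, a partner of Polycomb complexes, had 2815 and 3210 bp in leptonema, 1137 and 861 bp in zygonema and at most 649 bp later. The homeobox gene Cux1 had 2112 and 3795 bp in leptonema and a peak of 577 to 1980 bp in all the other H3K4me3 lists. The H3K4me2/3 peaks were not limited to leptonema. Over the 5 stages they measured 3305 to 4100 bp at Hexim1 and 2017 to 4117 bp at Cux1. Those at Auts2 were under 2000 bp only in early pachynema (896 bp).

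Zygonema had the lowest share of its broad peaks at promoters. Of the peaks of 2000 bp or more in zygonema, 55.6% in experiment 1 and 28.9% in experiment 2 lay at a TSS site, beside 90.8% to 100% in the other 8 lists. Its leading sites were the shared one of Ctu2, a tRNA thiolation enzyme, and Rnf166, with 2854 and 3814 bp, Atp1b1, a subunit of the sodium pump, with 2910 and 2882 bp, and Nf1, a regulator of Ras, with 2269 and 3067 bp. Atp1b1 and Nf1 had peaks of 866 to 1631 bp in leptonema and none in the 6 later lists, and they hold 34 and 9 CpG dinucleotides in the 1000 bp around the TSS, beside a median of 85 over the domains. Their RefSeq promoters lie outside the sites, which were tied to these genes by other GENCODE transcript starts.

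Diplonema gave Trim11, a ubiquitin ligase, with 4375 and 4658 bp, the zinc finger gene Zfp37 with 4064 and 4425 bp, and Zzz3, a subunit of the ATAC acetyltransferase complex, with 3370 and 3568 bp. Before diplonema, the Trim11 peaks were 684, 971, 357 and 434 bp wide in experiment 1 and 501, 0, 161 and 1393 bp in experiment 2. Zfp37 had, in experiment 2, a peak of 198 bp in leptonema, none in zygonema and 450 and 1798 bp in early and late pachynema, and its RefSeq promoters lie outside the site. Zzz3, by contrast, held peaks of 1450 to 1872 bp in all 8 earlier lists.

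The 3 widest domains lay at developmental regulators and reached their width in 1 library. The Hoxa7 and Hoxa9 site measured 11114 bp (within chr6:52215834-52227250), Sp9 9425 bp and the homeobox gene Evx2 8910 bp, all in experiment 2 of leptonema. In experiment 1 of leptonema, Hoxa7, Hoxa9 and Sp9 had no peak and Evx2 one of 348 bp. The other H3K4me3 lists of experiment 2 held peaks of at most 1928 bp at these sites. H3K4me2/3, also of experiment 2, had peaks of 1241, 5266 and 1289 bp at the 3 sites in leptonema. Of the 52 domains of 4000 bp or more, 37 reached that width in experiment 2 of leptonema, 13 in experiment 2 of diplonema and 3 in experiment 1 of diplonema. Among the 37, 27 had no peak at all in experiment 1 of leptonema, 26 had no H3K9ac peak in any stage and 13 had an H3K4me2/3 peak of 2000 bp or more in leptonema. Whether these widths belong to the stage or to this library was not tested.

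**Figure D3:**
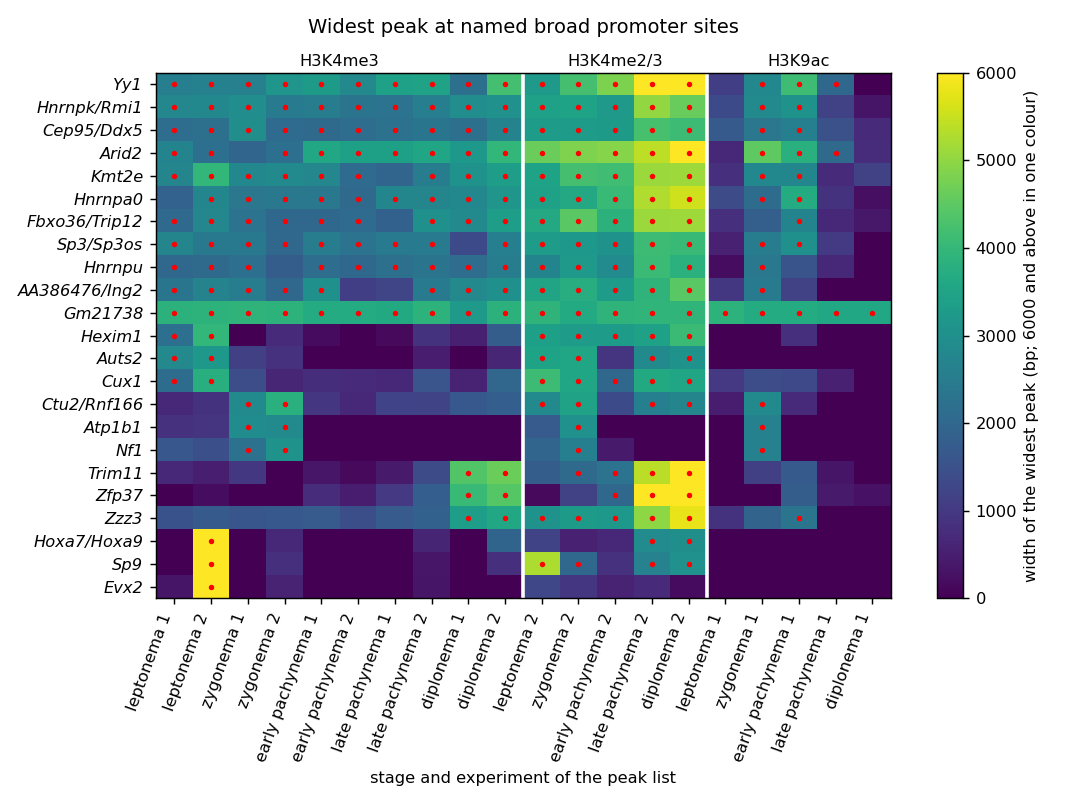
Width in bp (colour, with 6000 bp and above in 1 colour) of the widest peak at each named site (rows) in each of the 20 lists (columns, stage and experiment), with H3K4me3 on the left, H3K4me2/3 in the middle and H3K9ac on the right. Red points mark peaks of 2000 bp or more. The upper rows are broad in nearly all H3K4me3 and H3K4me2/3 lists. In H3K4me3, the middle rows are broad in 1 stage and the last 3 rows in experiment 2 of leptonema. In H3K4me2/3, rows of these groups are also broad in other stages, such as Hexim1, Cux1 and Zzz3 in all 5.

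Gene groups were counted by the share of their genes in a domain. Over all 14621 genes with a TSS site, 1655 (11.3%) lay in a domain, 8.3% without the leptonema list of experiment 2 and 7.29% without the diplonema list of experiment 2. Groups were counted against these shares with no test, since the rule had used the same widths. By period, 3.88% of genes were broad early only, 5.7% later only and 1.74% in both.

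Of the developmental transcription factors, 15 of 22 genes with a TSS site were broad, 14 of them only in early stages, and 1 of 22 was broad without experiment 2 of leptonema. Foxd3, a neural crest factor, had a peak of 8550 bp in that list, none in experiment 1 of leptonema and 601 bp in experiment 2 of zygonema. Otx2, a factor of the forebrain, had 5992 bp and no peak in any of the other 9 lists, and Msx1 had 5003 bp, with 320 and 338 bp in experiment 2 of late pachynema and diplonema. None of the 15 had an H3K9ac peak. Only Nkx6-1 was broad outside leptonema, at 2738 bp in experiment 2 of diplonema. By gene name, 16 of 35 Hox genes, 33 of 63 genes of other homeobox families and 25 of 62 Fox, Sox, Gata, Zic and Tbx genes were broad, and 1, 4 and 3 of them without experiment 2 of leptonema. The counts by name include antisense and overlapping transcripts such as Hoxd3os1, Otx2os1 and Sox1ot. Genes of a shared site, such as Hoxa7 with Hoxa9 or Zic1 with Zic4, are counted separately. Hoxd8 was the one Hox gene broad also later, with 3641 bp in experiment 2 of leptonema, 2013 bp in experiment 2 of diplonema and 504 to 1374 bp in the other lists.

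Genes for heterogeneous nuclear ribonucleoproteins and SR splicing factors, which package pre-mRNA and direct splicing, were broad in 19 of 26 cases, 18 without experiment 2 of leptonema and 14 without experiment 2 of diplonema. Of the 19, 10 were broad in both periods, 8 only later and 1 only early. The shared site of Srsf2 and Mfsd11 was 1997, 2407, 1971, 1775 and 2495 bp wide in experiment 1 and 3328, 1654, 1570, 2745 and 2847 bp in experiment 2. All 19 had a peak in all 10 lists and an H3K9ac peak in at least 1 list. Other RNA-related families had 5 of 46 (Ddx and Dhx helicases), 6 of 34 (Rbm genes) and 2 of 73 (ribosomal protein genes), the last 1 of 73 without experiment 2 of leptonema and the Ddx and Dhx and Rbm counts 3 and 2 without experiment 2 of diplonema. The site of the ribosomal protein gene Rpl4 also holds Zwilch and Snord16a. It was broad in both leptonema lists (2758 and 2133 bp) and in experiment 1 of zygonema (2924 bp).

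Chromatin regulators formed another group. Of the genes for H3K4 methyltransferases, subunits of their complexes and H3K4 demethylases, 6 of 20 were broad, and 3 of 20 without experiment 2 of diplonema. Of the 6, 2 were broad in both periods (Kmt2e and Kmt2c) and 4 only later (Kdm5b, Setd1a, Setd1b and Kmt2b). Kmt2c, a methyltransferase of enhancers, was 2199 and 2843 bp wide in leptonema and 2573 and 2076 bp in zygonema. It had 184 bp and no peak in early pachynema, none and 1801 bp in late pachynema, and 480 and 2121 bp in diplonema. Kdm5b, an H3K4 demethylase, was broad in experiment 1 of early pachynema (2019 bp) and in experiment 2 of late pachynema (2139 bp) and diplonema (3185 bp). Among other chromatin regulators 14 of 35 were broad, 12 without experiment 2 of leptonema and 10 without experiment 2 of diplonema. Arid1a, a BAF subunit, had 6 broad lists with 5632 bp in experiment 2 of leptonema and 2119 bp in experiment 1. By name, 16 of 35 Arid, Kmt, Kdm and Setd genes were broad, 10 without experiment 2 of diplonema, and Arid1b was so in all 4 leptonema and zygonema lists (2074 to 2877 bp), with at most 733 bp later.

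Genes of meiosis and of the male germline came in 5 lists. Of the pachytene programme, 9 of 30 were broad, 6 only later and 3 in both periods, and 6 of 30 were broad without experiment 2 of diplonema. Hspa2, the testis chaperone of spermatocytes, was broad in 7 lists, with 2912, 2436, 2371, 798 and 1856 bp in experiment 1 and 2294, 2039, 914, 3045 and 3810 bp in experiment 2. Rfx3, a factor of ciliary genes, was broad in experiment 2 of leptonema and diplonema (2710 and 2107 bp) and experiment 1 of zygonema (2091 bp). Mybl1, a regulator of the pachytene programme, was broad in experiment 2 of leptonema and diplonema alone (2041 and 2087 bp). Ybx2, a germ cell mRNA-binding protein, was at 602 to 1128 bp in leptonema and zygonema and at 2265 and 2754 bp in diplonema. The transcription factor gene Rfx2 had 2014 and 3025 bp in experiment 2 of late pachynema and diplonema, but 638 and 847 bp in experiment 1 of these stages.

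Spermatogonial and meiotic entry genes were broad in 6 of 20 cases, 4 of them only early, and in 3 without experiment 2 of leptonema. Dazl, an RNA-binding protein of germ cells, had 1820 and 2757 bp in leptonema and 2422 and 1699 bp in zygonema and at most 1529 bp later. Stra8, the marker used to sort leptonema, had 586 and 2065 bp in leptonema and no peak in the other 8 lists. Of break formation and recombination genes, 5 of 33 (15.2%) were broad, and 3 without experiment 2 of leptonema. Zcwpw1, a reader of H3K4me3 and H3K36me3, shares its site with Mepce. That site had 3127 and 2748 bp in leptonema and 206 to 1407 bp elsewhere. H2afx, the histone variant phosphorylated at breaks, had 2746 and 2484 bp in diplonema and 1220 to 1994 bp elsewhere. The axis and synapsis genes counted 2 of 16, Sycp3 and Smc3, near the background. Sycp3 had 1191 and 2199 bp in leptonema and 1844 and 2742 bp in diplonema.

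Spermiogenesis genes were broad in 2 of 15 cases, and in 1 without experiment 2 of either leptonema or diplonema. The 2 were Odf2 and Tssk6, the latter in a site shared with Ndufa13 and Yjefn3. Ubiquitous and immediate early genes were broad in 6 of 27 cases, 3 without experiment 2 of diplonema, led by the ubiquitin gene Ubb, with 2440 bp in experiment 1 of early pachynema and 2306 and 3613 bp in experiment 2 of late pachynema and diplonema. Markers of somatic testis cells had a TSS site in 6 of 24 cases and none was broad. With 6 genes, beside the 11.3% of all genes, this count cannot tell whether the sorts held somatic nuclei. Zinc finger genes of the Zfp, Zscan and Zkscan names counted 24 of 305 (7.87%), 15 without experiment 2 of diplonema. Clustered histone genes counted 10 of 47, 5 without experiment 2 of leptonema, in sites that several of them share, such as the 3500 bp site of Hist2h2ab, Hist2h2ac and Hist2h2be in experiment 1 of diplonema. Clustered protocadherin genes counted 5 of 11, 2 without experiment 2 of leptonema and 3 without experiment 2 of diplonema, and none of the 5 had an H3K9ac peak. Near-identical copies in these clusters can share reads, so their widths are uncertain.

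**Figure D4:**
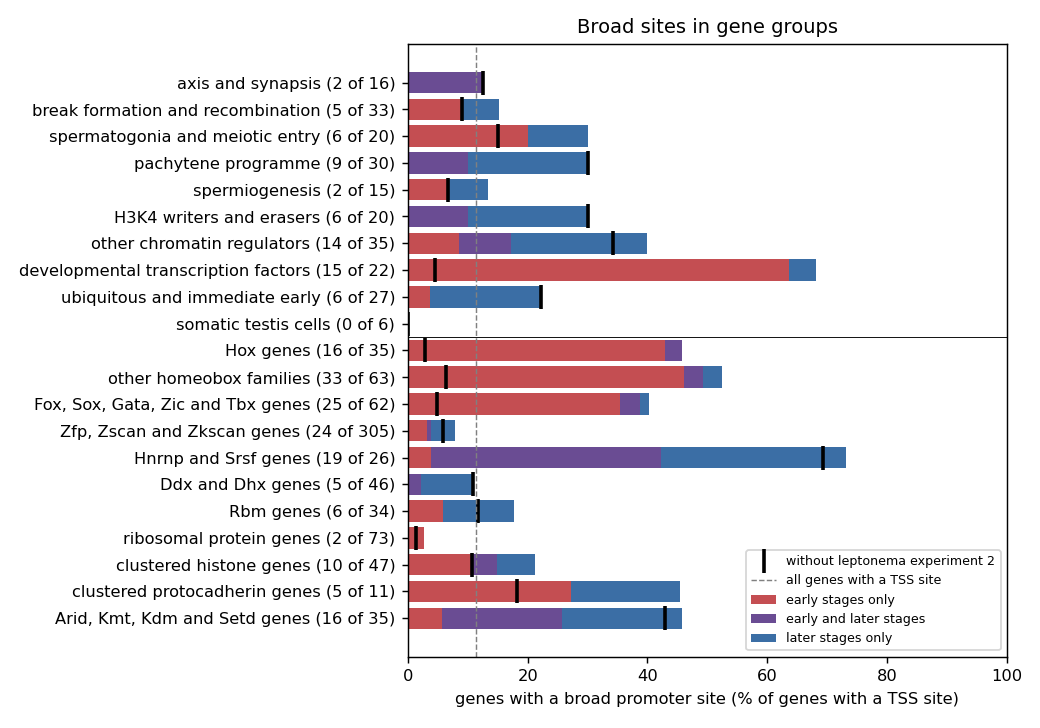
Share of genes with a TSS site that lay in a broad domain (x axis, %), for the gene lists (above the line) and for families taken by gene name (below it), with counts in the labels. Bars are split by period, the black ticks give the share without the leptonema list of experiment 2, and the dashed line is the 11.3% of all genes. The ticks lie under 10% for the developmental and homeobox groups, and near the bar's end for Hnrnp and Srsf genes.

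H3K4me2/3, read with the Abcam antibody, was present at most domains, as at most TSS sites. From leptonema to diplonema, a peak of any width was present at 97.5% (95% exact binomial interval 96.4 to 98.3), 95.6%, 92.0%, 92.5% and 91.5% of the 1105 sites. Over all TSS sites these shares were 92.7%, 90.7%, 83.2%, 86.9% and 85.5%, and of the 2680 other TSS sites with an H3K4me3 peak in all 10 lists at least 2679 had one in each stage. Only Gm21188 and 9130410C08Rik had no H3K4me2/3 peak in any stage, and both had an H3K4me3 peak in experiment 2 of leptonema alone (2502 and 2053 bp). In the lists of experiment 2, the H3K4me2/3 peaks of the same stage overlapped at least 99.0% of the broad H3K4me3 peaks. For the narrower H3K4me3 peaks of the other TSS sites this share was 98.2% to 99.8%. The broad peaks were wholly covered in 45.7% of cases in leptonema, 50.0% in zygonema, 100% in early and late pachynema and 97.4% in diplonema. For the narrower peaks these shares were 87.8%, 93.3%, 99.7%, 95.2% and 91.9%.

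Broad H3K4me2/3 peaks had a higher share at the domains than over all TSS sites in each of the 5 stages. A peak of 2000 bp or more was present at 66.6% of the domains in leptonema, 58.6% in zygonema, 51.9% in early pachynema, then 80.7% and 79.6% in late pachynema and diplonema. The shares of all TSS sites were 20.6%, 14.5%, 9.68%, 34.4% and 37.9%. At the 2680 other TSS sites with an H3K4me3 peak in all 10 lists they were 21.2%, 18.8%, 14.6%, 63.1% and 70.1%, nearer to the domains in the last 2 stages. The domains made up from 18.6% (diplonema) to 47.3% (early pachynema) of the TSS sites with a broad H3K4me2/3 peak. The widest H3K4me2/3 peak of the domains had medians of 2327, 2280, 2138, 3370 and 3676 bp. At Yy1 the H3K4me2/3 peaks measured 3248, 4228, 4826, 6030 and 5989 bp from leptonema to diplonema, whereas at Hoxa7 and Hoxa9 they measured 1241, 541, 663, 2892 and 2989 bp.

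H3K9ac was present at fewer domains and varied more between stages. A peak of any width lay at 43.5%, 79.7%, 73.7%, 37.8% and 15.7% of the domains from leptonema to diplonema, beside 21.6%, 65.4%, 54.3%, 12.9% and 3.39% of all TSS sites. At the 2680 other TSS sites with an H3K4me3 peak in all 10 lists it was 50.4%, 99.4%, 99.0%, 33.5% and 6.60%, above the domains in the first 3 stages and below them in late pachynema and diplonema. The H3K9ac lists held 2823, 16003, 7744, 1727 and 516 peaks in this order, and the shares had the same order as the list lengths, whose part in them was not tested. Peaks of 2000 bp or more lay at 2, 211, 156, 6 and 1 domains (0.181%, 19.1%, 14.1%, 0.543% and 0.0905%), beside 0.016%, 3.21%, 1.54%, 0.048% and 0.00799% of all TSS sites. Of the TSS sites with a broad H3K9ac peak, the domains made up 52.6% in zygonema and 80.8% in early pachynema, and all of them in the other stages, where 6 or fewer sites had one. Among the domains, the widest H3K9ac peaks were at Tgif1, a homeobox corepressor (4927 bp in early pachynema), Arid2 (4513 bp in zygonema) and Gstt2, a glutathione transferase (4420 bp in early pachynema).

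Over the 10 lists of the other antibodies, the share with a broad peak was 37.1% of the domains and 9.77% of the other TSS sites. The mean difference was 27.4 percentage points (SD 22.9, n = 10 lists), and the domains were higher in 10 of 10 lists. A two-sided exact sign-change permutation test gave p = 0.00195, the smallest p that 10 lists allow. The lists were all read on the same sites, so they are not independent replicates. Peaks counted on an overlap of 1 bp, which a wider site meets more often by its width alone. The H3K4me2/3 antibody also binds the mark that chose the domains. The p values of this contrast therefore cannot show that the marks share their breadth, and the differences are descriptions. In 3 H3K9ac lists (leptonema, late pachynema and diplonema) no other TSS site had a broad peak. The sign there rested on 2, 6 and 1 domains, the last of them Gm21738, which is 84.0% repeat. Without these 3 lists the difference was 39.0 points over 7 lists, or 25.5 points against the other TSS sites with an H3K4me3 peak in all 10 lists (both exact permutation p = 0.0156, the smallest that 7 lists allow). The difference was 48.4 ± 2.31 points over the 5 H3K4me2/3 lists and 6.41 ± 8.50 points over the 5 H3K9ac lists. With 5 lists each, an antibody alone cannot go below p = 0.0625, which both gave in the exact test. Against the 2680 other TSS sites with an H3K4me3 peak in all 10 lists, the mean difference was 17.9 points (exact p = 0.00195). Each antibody shares its experiment number with 5 of the lists that chose the domains. With domains chosen from the opposite experiment only, the difference was 32.9 points (exact p = 0.00195). The 302 domains of sites merged from the experiment 1 lists alone had a broad H3K4me2/3 peak in 79.1% (early pachynema) to 92.4% (late pachynema) of cases.

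Between periods, the shares of domains with a broad peak of the other antibodies differed by less than the spread between lists. That spread is also one between antibodies, with a mean share of 67.5% over the H3K4me2/3 lists and 6.81% over the H3K9ac lists. The test of the pooled lists therefore cannot isolate variation between stages. The pooled shares were 36.1% ± 31.7 (SD, n = 4 lists) in leptonema and zygonema and 37.8% ± 37.8 (n = 6) in the later stages. This is a difference of -1.70 points (p = 0.895 in a two-sided exact permutation test). Its sign turned when the H3K4me3 list of experiment 2 of diplonema was left out (6.19 points), and when the leptonema (10.3) or zygonema (3.98) list of H3K9ac or the early pachynema (1.11), late pachynema (6.88) or diplonema (6.67) list of H3K4me2/3 was.

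The other antibodies were also read by the period in which a domain was broad. Domains of both periods had a broad H3K4me2/3 peak in 93.9%, 92.6%, 90.2%, 99.4% and 98.8% of cases from leptonema to diplonema. Early domains had one in 69.5%, 56.5%, 31.9%, 49.1% and 45.9%, and later domains in 56.1%, 49.9%, 55.3%, 99.1% and 99.4%. Thus later domains exceeded early ones from early pachynema onward, and early domains were above later ones in leptonema and zygonema. In late pachynema and diplonema early domains lay below the other TSS sites with an H3K4me3 peak in all 10 lists (63.1% and 70.1%). The classes were drawn from H3K4me3 widths of the same stages, and no test of this difference was made.
An H3K9ac peak was less frequent at early than at later domains in every stage, though binomial intervals overlapped in leptonema and zygonema. From leptonema to diplonema, early domains had one in 38.1%, 73.2%, 52.1%, 13.8% and 2.46% of cases. Later domains had one in 40.4%, 79.6%, 83.6%, 47.7% and 21.3%. All TSS sites had 12.9% and 3.39% in late pachynema and diplonema, near the early domains. Broad H3K9ac peaks lay at 17.9% of early and 11.6% of later domains in zygonema, and at 3.69% and 14.4% in early pachynema. In the other stages at most 0.374% of either class had one. No H3K9ac peak in any stage was found at 25.6% of early domains, 12.3% of later ones and 2.45% of those of both periods, beside 31.4% of the other TSS sites and 3 of the 2680 other TSS sites with an H3K4me3 peak in all 10 lists (0.112%).

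**Figure D5:**
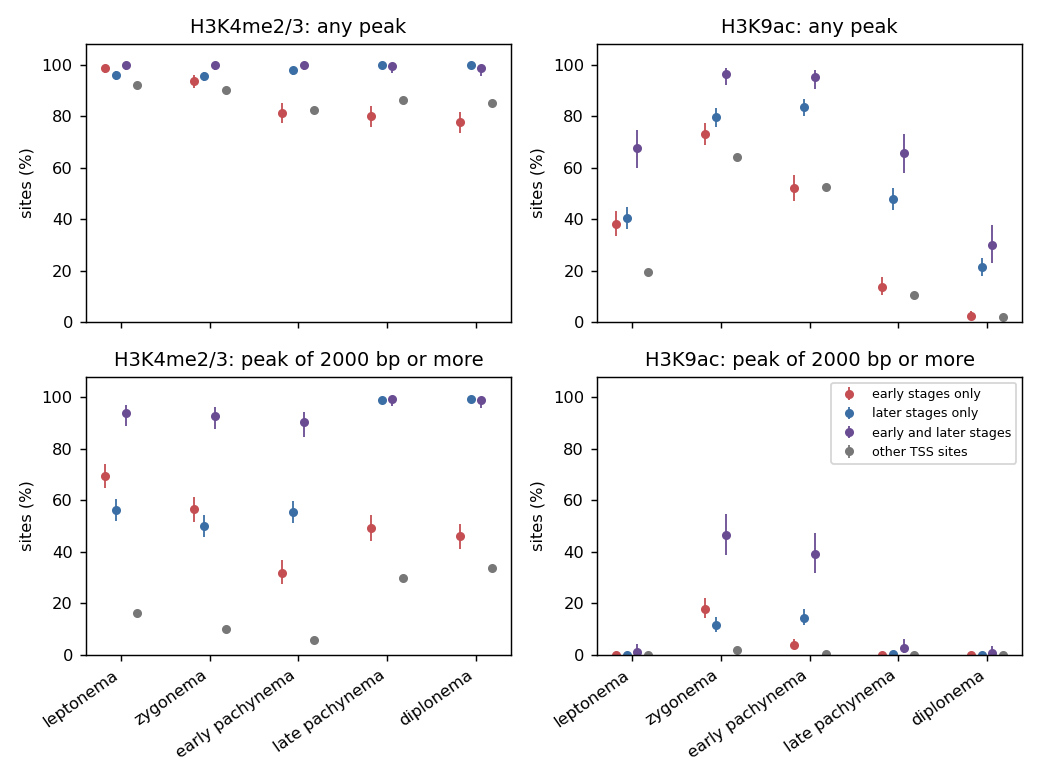
Share of sites (%, y axis) with an H3K4me2/3 peak (left) or an H3K9ac peak (right) of any width (top) or of 2000 bp or more (bottom), by stage (x axis) and class of site. Bars are 95% exact binomial intervals over sites, which cover counting error only. In late pachynema and diplonema the later domains lie above the early ones in all panels where shares exceed 1%.

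CpG density depended on where it was measured. The 1000 bp around the TSS held a median of 85 CpG dinucleotides (quartiles 60 and 111) at the domains, 64 at the other TSS sites and 78 at those with a peak in all 10 lists. By class these medians were 79 at early domains, 84 at later ones and 107 at those of both periods. Between 500 and 2000 bp from the TSS, the medians were 27, 14.3 and 14 CpG per 1000 bp. In that flank, early domains held 29.7, later ones 22.3 and those of both periods 39.3, and the 37 sites of 4000 bp or more in experiment 2 of leptonema held 42.7. At these 37 sites the TSS itself was less CpG-rich (55 in 1000 bp). Over the whole site, whose length the rule affects, the domains had a lower median than the other sites, with 60.6 CpG per 1000 bp beside 68.1 at the other TSS sites and 68.4 at those with a peak in all 10 lists. CpG content was not used by the rule, and it is given here as a description without a test.

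Domains held TSSs of 2 or more genes in 44.3% of cases, beside 21.6% of the other TSS sites and 34.0% of those with a peak in all 10 lists, but a wider site overlaps more TSS windows by its width alone. At the 629 domains with TSSs on 1 strand and a start inside the widest peak, a median of 1500 bp lay downstream and 898 bp upstream, so that 63.1% of the peak was downstream, beside 67.6% at the other TSS sites. By chromosome, the domains were 6.54% (chromosome 16) to 10.8% (chromosome 17) of the TSS sites.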

How the data were processed

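ChIP-Seq peak lists from sorted spermatocyte nuclei were analysed, 20 lists from 20 of the 51 samples. The other 31 samples were not analysed here. Per the study's methods, the authors aligned reads to mm10 with BWA mem (0.7.12) and called H3K4me3 peaks with MACS2 (2.1.2), in its broad mode and against stage-matched input. For H3K9ac the control is not given in the sources used here. The deposited lists hold peak coordinates, 1 list per library and not pooled, on chromosomes 1 to 19, with no score, signal or read count. The submitters' notes also name deepTools (3.0.1). The depth and precision of a call are therefore unknown. A deeper or more enriched library can give more and wider peaks, a site without a peak can carry the mark below threshold, and no spike-in scaling enters the lists. Binomial intervals reflect counting error alone.

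Overlapping or adjoining H3K4me3 peaks were merged, and sites were taken at a TSS when they overlapped the window of 500 bp on either side of a GENCODE M21 transcript start (125891 distinct windows) by at least 1 bp. Genes are those of the windows in a site. Peaks of the other antibodies were counted when they overlapped the site by at least 1 bp. CpG and repeat content came from GRCm38.p6, and promoters from RefSeq (1113 of the 1655 genes of the domains matched by symbol). Python 3.11.15, numpy 2.4.6 and scipy 1.17.1 were used. Two-sided exact tests were sign-change permutations over lists and permutations of the stage labels, both on the absolute mean difference, with a threshold of 0.05. They measure the spread between lists, which may be technical.

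Named sites were those broad in the most lists, those broad in both libraries of 1 stage only, the widest, those next to the limit, members of the gene lists, sites without an H3K4me2/3 peak and those with the widest H3K9ac peaks. The domains, the 10 gene lists and the rule for names were chosen with earlier results of these data known, and the families by gene name, with their examples and Stra8, after their values were seen. Alternatives were other widths (1500 bp, 3000 bp or the widest 5% of each list), equal list sizes, a TSS window of 1000 bp, protein-coding transcripts, a merge distance of 500 bp, 2 or more lists, a replicate block and leaving out each library. One site next to the limit is not reported here. The steps were tested on simulated lists.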

Additional observations from a re-analysis of the deposited data

How the results depend on the processing

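The number of domains was 2746 with a minimum of 1500 bp, 188 with 3000 bp and 359 when 2 or more lists had to be broad, and between 719 (without experiment 2 of diplonema) and 1105 when 1 H3K4me3 library was left out. It stayed between 1006 and 1514 under the other settings. The median number of broad sites per library, 97, became 393.5, 9.5 and 379 with 1500 bp, 3000 bp and the widest 5% of each list, and under the last of these the lists ranged from 241 to 596. The excess of broad peaks of the other antibodies at the domains stayed above 0 in all settings that used both antibodies. Exact permutation tests of it gave p = 0.00195 or 0.00391 in these settings, or 0.0156 without 3 H3K9ac lists. These p values have the limits given with that result. Alone, H3K4me2/3 (48.4 points) and H3K9ac (6.41 points) passed no threshold, since 5 lists cannot go below 0.0625. The difference between early and later stages, -1.70 points, passed the threshold under no setting. It turned to 1.78, 8.69 and 0.65 points with 1500 bp, the widest 5% and 2 or more lists, and to 4.72 points with H3K9ac alone. Leaving out 1 library moved it between -11.9 and 10.3 points, and above 0 without 1 of the 6 libraries named with that result (1.11, 3.98, 6.19, 6.67, 6.88 and 10.3 points). With the replicate block, in which the experiment number is also the antibody, the difference was -1.70 points (exact permutation p = 0.78). The mean share of domains with any H3K4me2/3 peak (93.8%) was 88.9% with 3000 bp, 98.6% with 2 or more lists, 95.8% with protein-coding transcripts and 91.9% to 96.3% when 1 library was left out. That with any H3K9ac peak (50.1%) was 41.8% with 3000 bp, 61.9% with 2 or more lists, 19.5% with equal list sizes (each list held to the 516 peaks of the shortest) and 42.7% to 58.7% when 1 library was left out. Sites broad in any list of 1 experiment were read in each stage of the other. The mean share broad there over the 5 stages was 34.3% with experiment 1 choosing and 7.31% with experiment 2 choosing. The choice of domains from the opposite experiment, the contrast without 3 H3K9ac lists and the gene counts without experiment 2 of leptonema or diplonema were added after seeing the data. The lists give no depth. The paper reports an enrichment value (SPoT) and a sort purity for each H3K4me3 library, which were not used here. In each of the 5 stages, its SPoT value for all sites was higher in the experiment with more broad sites. The cause of the differences between the experiments of a stage was not tested.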
